A study of Homo sapiens with 12 samples.

Results

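The genes described here are 7 matrix metalloproteinases (MMP1, MMP2, MMP3, MMP7, MMP10, MMP13 and MMP14) and 3 tissue inhibitors of metalloproteinases (TIMP1, TIMP2 and TIMP3), 10 of the 38021 gene names in the table of counts. They were picked by name, as a family, because the MMP1 transcript moved in opposite directions with shBMAL1 in the lines studied. The changes of MMP1 are therefore given as a description with no test, and tests are given for the other members only. Of the 10 members, 8 had enough counts to be tested. MMP3 and TIMP3 had too few.

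RNA was sequenced from 12 cultures in 4 groups of 3 labelled biological replicates. 786O is a clear cell renal cell carcinoma (ccRCC) line without functional VHL, the ubiquitin ligase subunit that marks hypoxia-inducible factor alpha subunits for degradation, and WT8 cells are 786O cells that express wildtype VHL. Each line received, by lentivirus from a pLKO.1 vector, either shControl, whose shRNA has a scrambled sequence, or shBMAL1, whose shRNA targets BMAL1, the clock transcription factor encoded by ARNTL. All 4 groups were thus transduced, selected in puromycin and grown in the same serum-containing medium, and each group is a derivative of a single tumor line with 1 shRNA. The groups are 786O shControl, 786O shBMAL1, WT8 shControl and WT8 shBMAL1. In RNA from a whole culture, fewer cells that express a gene and less RNA per cell cannot be told apart.

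Matrix metalloproteinases are zinc-dependent enzymes that cut proteins of the extracellular matrix and are made as inactive proenzymes. Collagenases such as MMP1 and MMP13 cut fibrillar collagen, stromelysins such as MMP3 and MMP10 and the matrilysin MMP7 have broad substrates, the gelatinase MMP2 cuts denatured and basement membrane collagen, and MMP14 sits in the cell membrane. TIMPs bind and block the active enzymes, and TIMP2 also bridges MMP14 and the MMP2 proenzyme, so that MMP14 can activate MMP2. In tumors these enzymes are known for their part in invasion and vessel growth.

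The labels were checked first. ARNTL had 378 to 464 counts in 786O shControl and 128 to 142 in 786O shBMAL1, a fall by 1.62 ± 0.13 on the log2 scale (estimate ± SE, as below, edgeR adjusted p = 4.9e-13). In WT8 it had 309 to 355 and 56 to 72 counts, a fall by 2.48 ± 0.14 (edgeR adjusted p = 2.66e-17). VHL was at 17.6 to 21.3 CPM (counts scaled to a common library total) in the 6 libraries of 786O and at 631 to 1020 CPM in those of WT8, where it also fell by 0.60 ± 0.05 with shBMAL1 (edgeR adjusted p = 6.67e-13). Totals per library ran from 33182005 to 36477484 counts, and libraries of 1 group correlated at 0.991 to 0.992 in log2 CPM. Of the 12 renal epithelial markers, PAX8, KRT8, KRT18 and VIM among them, the summed level was 5850 to 6590 CPM in 786O and 3550 to 4540 CPM in WT8, with CA9 at 0 in WT8. VIM, a mesenchymal filament gene, was the largest part of that sum and carried the gap (4481 CPM in 786O and 1948 in WT8 with shControl). PAX8 (313 and 1335 CPM) and KRT18 (254 and 479 CPM) were higher in WT8. Of the 11 markers tested, 5 were higher and 6 lower in WT8 with shControl, against 39.3% higher and 40.2% lower over all genes tested. Summed levels of 10 fibroblast, 10 leukocyte and 6 endothelial markers were 9.49 to 15.5, 19.1 to 44.4 and 0.0863 to 1.74 CPM. FAP was at 0 in every library and so was CD3E, but other markers of their lists were present and changed. With shBMAL1 the fibroblast marker LUM rose by 1.45 ± 0.16 in 786O and by 3.80 ± 0.21 in WT8. PDGFRB, from the same list, fell by 2.39 ± 0.25 in WT8. Of the 5 fibroblast markers tested, 2 rose and 2 fell there, and all 3 leukocyte markers tested fell. The leukocyte marker CD68 had 647 to 1503 counts over the 12 libraries. Of the 11 renal epithelial markers tested, 0 rose and 9 fell with shBMAL1 in WT8, where 32.9% of all genes tested rose and 36.9% fell. The part of these markers in the results below was not tested.

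In the annotation used here (GENCODE version 44 on GRCh37), 5 members lie in 1 cluster on the minus strand of chromosome 11: MMP7 at chr11:102391239-102401481, MMP10 at chr11:102641233-102651359, MMP1 at chr11:102660132-102668891, MMP3 at chr11:102706532-102714340 and MMP13 at chr11:102813724-102826461. MMP14 (chr14:23305769-23318250, plus strand), MMP2 (chr16:55423612-55540603, plus strand), TIMP2 (chr17:76849059-76921469, minus strand), TIMP3 (chr22:33197691-33259028, plus strand) and TIMP1 (chrX:47441807-47446188, plus strand) lie apart. TIMP1 lies within SYN1 and TIMP3 within SYN3, both on the opposite strand, and TIMP2 overlaps CEP295NL on its own strand. The highest level of these partners in any library was 1.01 CPM for CEP295NL, 0.272 CPM for SYN1 and 0.0287 CPM for SYN3. MMP1, MMP3 and MMP10 overlap the antisense transcript WTAPP1, for which no value was used here. The libraries kept the strand, but the strand setting of the counting is not given in the sources used here.

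MMP1, the interstitial collagenase, had its highest level in WT8 shControl and its lowest in WT8 shBMAL1. It had 102, 83 and 92 counts in 786O shControl and 254, 288 and 255 in 786O shBMAL1. In WT8 shControl it had 761, 712 and 654 counts, and in WT8 shBMAL1 it had 6, 16 and 10. All 3 libraries with shBMAL1 were above those with shControl in 786O and below them in WT8, and no 2 groups overlapped. In CPM the means were 2.65 ± 0.30 (SD, n = 3, as for all means below) in 786O shControl, 7.64 ± 0.57 in 786O shBMAL1, 19.7 ± 1.67 in WT8 with the control and 0.285 ± 0.135 in WT8 shBMAL1.

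The log2 change of MMP1 with shBMAL1 was 1.52 ± 0.14 in 786O, 2.87-fold higher, and -6.10 ± 0.18 in WT8, 68.4-fold lower. Leaving out each of the 12 libraries in turn moved the value in WT8 between -6.50 and -5.80. With shControl, MMP1 was 7.42-fold higher in WT8 than in 786O (log2 2.89 ± 0.13), and with shBMAL1 it was 26.5-fold lower (log2 -4.73 ± 0.20). The change in WT8 minus that in 786O was -7.62 ± 0.24, which ranked 17th by absolute size among the 16838 genes tested. These values are those for which the family was picked.

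**Figure D1:**
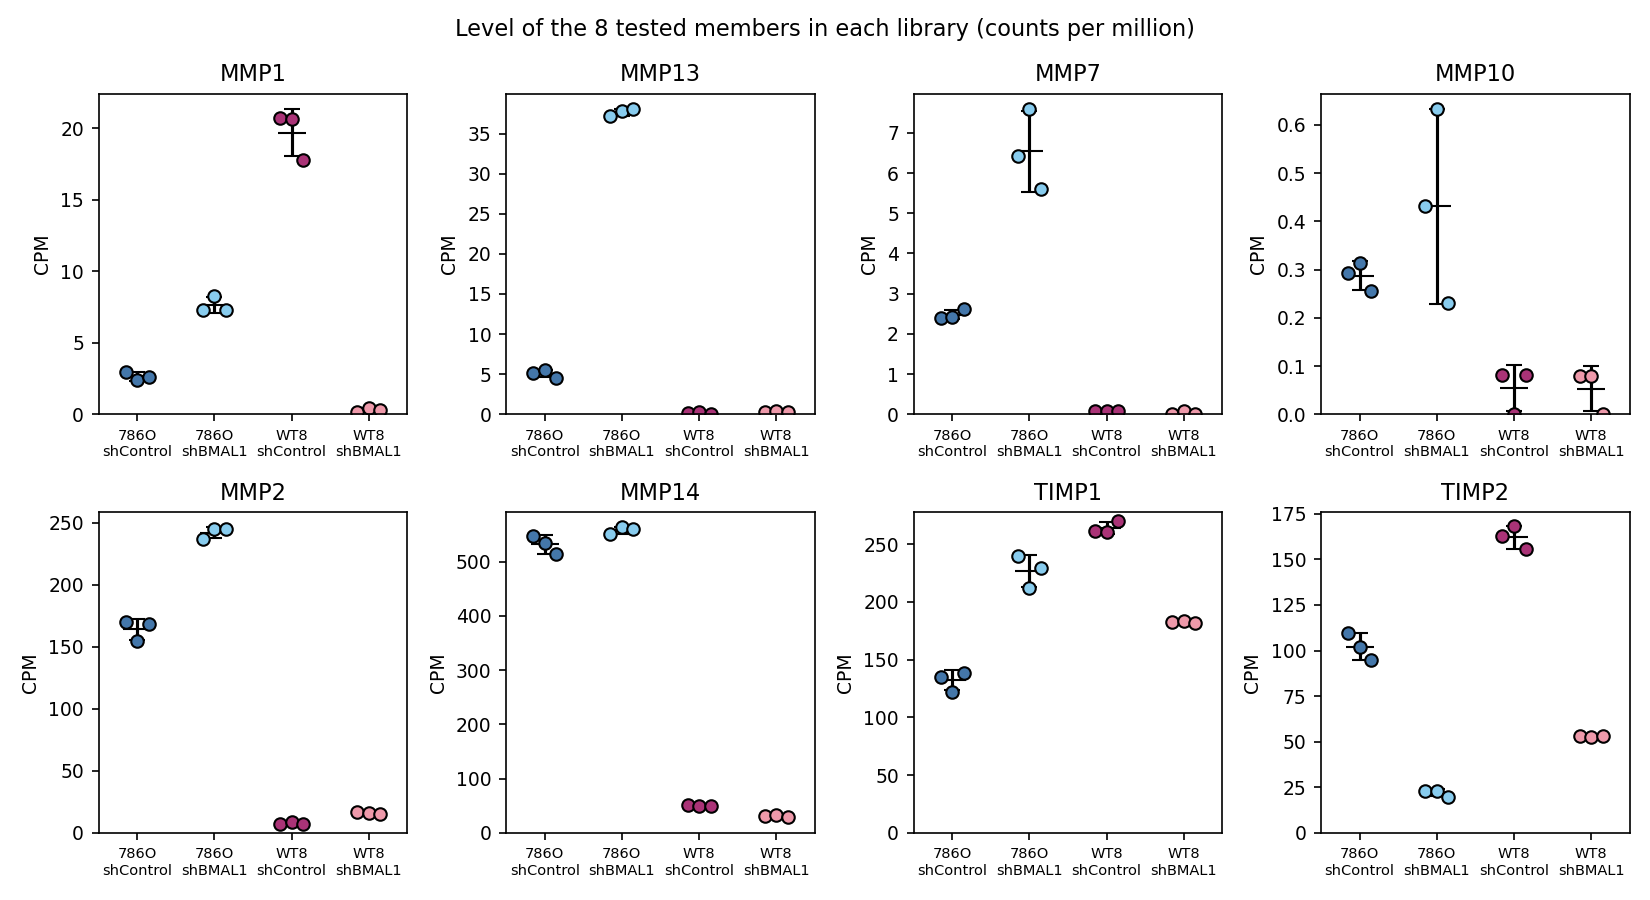
Level of the 8 tested members in CPM on linear axes that start at 0, in 786O and WT8 cells with shControl or shBMAL1. Each point is 1 library, horizontal marks are means and bars are the SD of 3 libraries. MMP1 was highest in WT8 shControl (19.7 CPM), MMP13 was highest in 786O shBMAL1 (37.7 CPM), and MMP2 and MMP14 were far lower in WT8 than in 786O.

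MMP13, the other collagenase of the set, rose in 786O with shBMAL1 and was scarce in WT8. It had 178, 191 and 160 counts in 786O shControl and 1294, 1313 and 1323 in 786O shBMAL1, a mean of 5.07 ± 0.47 against 37.7 ± 0.44 CPM. The groups were far apart: the change was 7.43-fold (log2 2.89 ± 0.11, edgeR adjusted p = 8.92e-22) and ranked 155th by absolute size among the 16838 genes tested. WT8 had 5, 11 and 3 counts with shControl and 12, 14 and 9 with shBMAL1, and these ranges overlap. The change in WT8 passed the threshold in the fit over all libraries (log2 0.81 ± 0.40, edgeR adjusted p = 0.0749).

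That call in WT8 rests on single libraries. It was lost without WT8 shControl replicate 1 (log2 0.65, edgeR adjusted p = 0.208) or 3 (0.47, adjusted p = 0.342) and without WT8 shBMAL1 replicate 1 (0.80, adjusted p = 0.124) or 2 (0.67, adjusted p = 0.211). Without WT8 shControl replicate 2, which had the most MMP13 counts of its group, it became 1.49 (adjusted p = 0.00662). The rise in 786O exceeded the change in WT8 by 2.08 ± 0.47 on the log2 scale (edgeR adjusted p = 0.000318), or by 1.40 with an adjusted p of 0.0602 without WT8 shControl replicate 2. MMP13 was 28.3-fold lower in WT8 than in 786O with shControl (edgeR adjusted p = 2.53e-20) and 120-fold lower with shBMAL1 (edgeR adjusted p = 2.38e-29). The order of its levels was 786O shBMAL1, 786O shControl and then both WT8 groups, which did not separate.

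MMP7, the matrilysin, followed MMP1 and MMP13 in 786O. It had 82, 85 and 92 counts in 786O shControl (2.48 ± 0.12 CPM) and 224, 264 and 195 in 786O shBMAL1 (6.54 ± 1.00 CPM). All 3 libraries with shBMAL1 were above those with shControl, and the change was 2.64-fold (log2 1.40 ± 0.20, edgeR adjusted p = 3.76e-07). In WT8 it had 3 counts in each shControl library and 0, 3 and 0 with shBMAL1, at or under the floor of 3 counts, so no fold is given there. Against that floor, MMP7 was at least 29.7-fold lower in WT8 than in 786O with shControl (edgeR adjusted p = 2.07e-14) and at least 81.7-fold lower with shBMAL1 (edgeR adjusted p = 2.29e-19). MMP7 had enough counts to be tested only through 786O, so a call between the lines could only be downward in WT8. A difference between its changes in the lines passed the test (edgeR adjusted p = 0.00653), but its size depends on the prior count because WT8 was at the floor.

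The stromelysins were scarce. MMP10 had 10, 11 and 9 counts in 786O shControl and 15, 22 and 8 in 786O shBMAL1, ranges that overlap, and the change missed the threshold (log2 0.58 ± 0.56, 95% interval -0.51 to 1.67, edgeR adjusted p = 0.431). In WT8 it had 3, 0 and 3 counts with shControl and 3, 3 and 0 with shBMAL1. It was at least 3.45-fold lower in WT8 than in 786O with shControl (edgeR adjusted p = 0.00715) and at least 5.38-fold lower with shBMAL1 (edgeR adjusted p = 0.000534). Like MMP7, MMP10 was tested only through its counts in 786O, so these calls could only be downward in WT8. MMP3, a close relative in sequence that may share reads with MMP10, had 0 counts in all 3 libraries of 786O shControl, 3, 0 and 3 in 786O shBMAL1, 10, 2 and 0 in WT8 shControl and 2, 1 and 1 in WT8 shBMAL1. With MMP3 and MMP10 summed the difference between the lines with shControl was -0.78 (edgeR adjusted p = 0.252). MMP3 did not pass the filter on low counts. Without that filter its difference between the lines with shControl was called (edgeR adjusted p = 0.0194), as it was by DESeq2 (adjusted p = 0.0409), and so was that between its changes with shBMAL1 without the filter (edgeR adjusted p = 0.0577), though not by DESeq2 (adjusted p = 0.111). Of the 12 counts in WT8 shControl, 10 were in replicate 1.

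Promoter sequences from RefSeq (GRCh38.p14, 250 bases before to 50 after the start) matched 5 members: MMP7, MMP10, MMP14, TIMP1 and TIMP3. MMP1, MMP2, MMP3, MMP13 and TIMP2 are named only. The upstream bases of MMP7 and MMP10 are shown because the AP-1 site TGANTCA, bound by FOS and JUN factors, lies at the same distance from the start in both. Capitals mark the match, which began at position -67 from the start in each, as TGAGTCA in MMP7 and TGAATCA in MMP10. The MMP7 sequence is chr11:102530748-102530997 and the MMP10 sequence chr11:102780629-102780878, both on the minus strand and written 5′ to 3′ up to the start.
MMP7: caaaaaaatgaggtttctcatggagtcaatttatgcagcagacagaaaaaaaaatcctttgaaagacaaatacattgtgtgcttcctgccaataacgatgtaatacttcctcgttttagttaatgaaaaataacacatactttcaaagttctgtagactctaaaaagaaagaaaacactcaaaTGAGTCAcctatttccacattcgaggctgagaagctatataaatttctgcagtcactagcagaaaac
MMP10: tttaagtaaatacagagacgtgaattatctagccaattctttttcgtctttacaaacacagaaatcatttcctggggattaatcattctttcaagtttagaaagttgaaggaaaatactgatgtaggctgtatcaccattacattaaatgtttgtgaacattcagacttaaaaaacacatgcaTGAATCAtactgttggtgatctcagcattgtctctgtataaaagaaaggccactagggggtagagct
Searched on both strands, TGANTCA was in 7.71% of all 35116 promoters and in 2 of the 5 members' promoters, those of MMP7 and MMP10. The ETS core GGAA was in all 5, as in 95.5% of all promoters. The hypoxia response core (ACGTG or GCGTG) was in 4 of the 5, those of MMP10, MMP14, TIMP1 and TIMP3, against 48.4% of all promoters. The E-box CACGTG, which contains ACGTG, was in 7.26% of all promoters and in 0 of the 5 members' promoters. A match to these letters is a description of the sequence and not a binding site.

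MMP2, the gelatinase, rose with shBMAL1 in both lines and was far lower in WT8. It had 5816, 5402 and 5932 counts in 786O shControl and 8253, 8505 and 8525 in 786O shBMAL1. In WT8 it had 257, 310 and 249 counts with shControl and 619, 609 and 571 with shBMAL1. No 2 groups overlapped, and the order was 786O shBMAL1 (242 ± 4.54 CPM), 786O shControl (164 ± 8.52 CPM), WT8 shBMAL1 (16.0 ± 0.63 CPM) and WT8 shControl (7.58 ± 1.23 CPM). The rise was 1.48-fold in 786O (log2 0.56 ± 0.05, edgeR adjusted p = 8.46e-11) and 2.12-fold in WT8 (log2 1.08 ± 0.08, edgeR adjusted p = 1.69e-14), larger in WT8 by 0.52 ± 0.10 (edgeR adjusted p = 2e-05). MMP2 was 21.7-fold lower in WT8 than in 786O with shControl (edgeR adjusted p = 2.36e-34) and 15.1-fold lower with shBMAL1 (edgeR adjusted p = 4.38e-34).

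MMP14, the membrane-type enzyme, was the most counted member in 786O. It had 18784, 18705 and 18067 counts in 786O shControl and 19197, 19579 and 19529 in 786O shBMAL1, or 532 ± 17.3 and 559 ± 6.50 CPM. Every library with shBMAL1 was above every library with shControl, by a margin that missed the threshold (log2 0.07 ± 0.04, 95% interval -0.02 to 0.16, edgeR adjusted p = 0.206). The WT8 libraries had 1905, 1703 and 1830 counts with shControl and 1184, 1246 and 1079 with shBMAL1, or 50.3 ± 1.29 and 31.2 ± 2.22 CPM. The WT8 groups did not overlap and MMP14 fell by 0.69 ± 0.05 on the log2 scale (edgeR adjusted p = 2.45e-14), which differed from 786O by -0.76 ± 0.07 (edgeR adjusted p = 5.88e-12). It was 10.6-fold lower in WT8 than in 786O with shControl (edgeR adjusted p = 1.89e-35) and 17.9-fold lower with shBMAL1 (edgeR adjusted p = 9.77e-38).

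TIMP1, an inhibitor of most secreted MMPs, was the tested member other than MMP1 whose change with shBMAL1 passed the threshold upward in 786O and downward in WT8. It had 4638, 4276 and 4867 counts in 786O shControl and 8335, 7372 and 7967 in 786O shBMAL1. WT8 had 9603, 8990 and 9944 counts with shControl and 6881, 6849 and 6803 with shBMAL1. The order of its levels was WT8 shControl (264 ± 5.46 CPM), 786O shBMAL1 (227 ± 13.7 CPM), WT8 shBMAL1 (183 ± 0.52 CPM) and 786O shControl (132 ± 8.57 CPM), with no overlap between neighbours. The log2 change was 0.78 ± 0.05 in 786O (edgeR adjusted p = 1.07e-15) and -0.53 ± 0.05 in WT8 (edgeR adjusted p = 4.01e-12), and these differed by -1.31 ± 0.07 (edgeR adjusted p = 2.02e-18). With shControl, TIMP1 was 2.00-fold higher in WT8 than in 786O (edgeR adjusted p = 5.77e-20), and with shBMAL1 it was 1.24-fold lower (edgeR adjusted p = 4.82e-07).

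TIMP2, the inhibitor that also takes part in MMP2 activation, fell with shBMAL1 in both lines. It had 3754, 3561 and 3341 counts in 786O shControl and 801, 805 and 692 in 786O shBMAL1. The WT8 libraries held 5989, 5801 and 5726 counts with shControl and 1993, 1962 and 1984 with shBMAL1. Neighbouring groups did not overlap in the order WT8 shControl (162 ± 6.31 CPM), 786O shControl (102 ± 7.27 CPM), WT8 shBMAL1 (52.9 ± 0.35 CPM) and 786O shBMAL1 (22.0 ± 1.85 CPM). The fall was 4.64-fold in 786O (log2 -2.21 ± 0.06, edgeR adjusted p = 2.66e-25) and 3.07-fold in WT8 (log2 -1.62 ± 0.06, edgeR adjusted p = 5.57e-24), smaller in WT8 by 0.60 ± 0.08 (edgeR adjusted p = 1.33e-07). TIMP2 was 1.59-fold higher in WT8 than in 786O with shControl (edgeR adjusted p = 1.63e-13) and 2.40-fold higher with shBMAL1 (edgeR adjusted p = 1.1e-19). TIMP3, an inhibitor that binds to the matrix, had 2 counts in 786O shControl replicate 3 and 0 in the other 11 libraries.

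**Figure D2:**
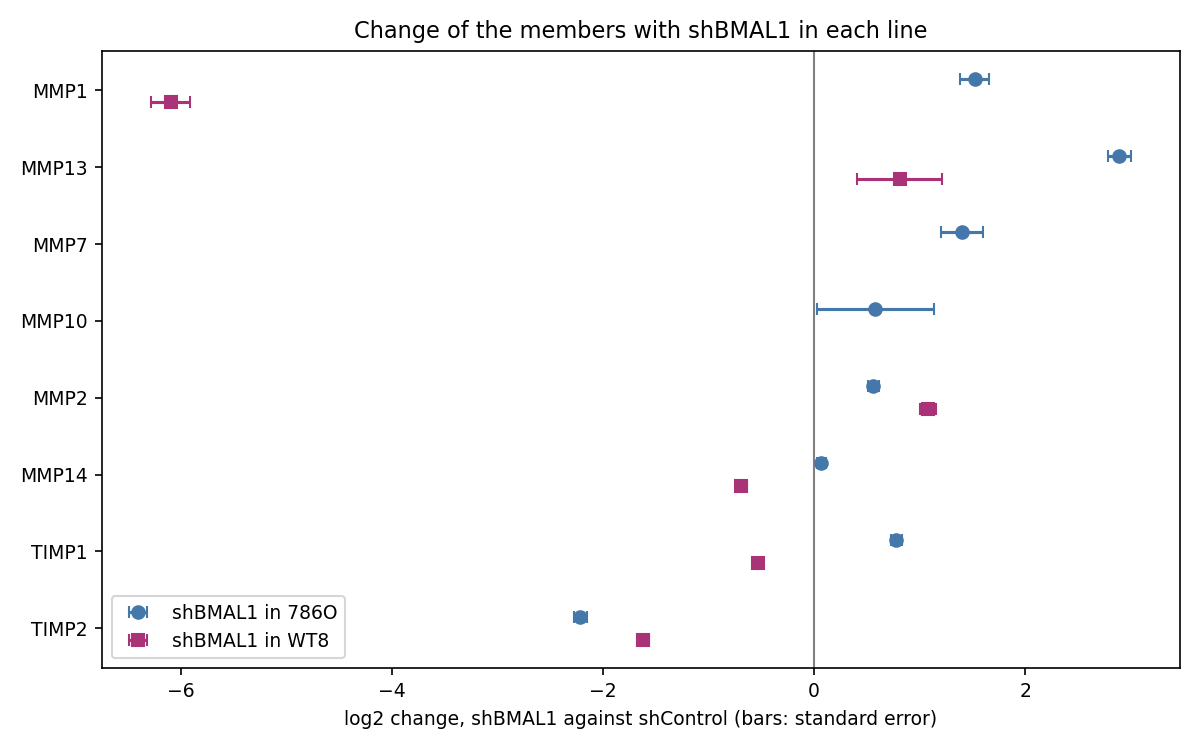
Log2 change with shBMAL1 against shControl in 786O (circles) and in WT8 (squares), with bars of 1 standard error from a fit over 12 libraries. MMP7 and MMP10 have no value in WT8, where both groups were at or under 3 counts. MMP1, MMP14 and TIMP1 lie below 0 in WT8, MMP13 and MMP2 above 0 in both lines, and TIMP2 below 0 in both, while MMP14 in 786O (0.07) is near 0.

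Counted over the 7 tested members other than MMP1, 4 rose with shBMAL1 in 786O (MMP2, MMP7, MMP13 and TIMP1) and 1 fell (TIMP2), with a median log2 change of 0.58. In that comparison 48.9% of all genes tested were called, 24.5% higher and 24.4% lower, around a median of 0.000697. In WT8, 2 rose with shBMAL1 (MMP2 and MMP13) and 3 fell (MMP14, TIMP1 and TIMP2), with a median of -0.53, where the call was made for 69.8% of the genes tested (32.9% higher, 36.9% lower) around a median of -0.0425. The change differed between the lines for 6 members, where 56.0% of all genes were called, 27.4% upward and 28.5% downward. MMP2 and TIMP2 differed upward in WT8 against 786O, and MMP7, MMP13, MMP14 and TIMP1 downward. For MMP7 both WT8 groups were at or under 3 counts, so its difference rests on 786O and the floor.

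Between the lines, all 7 were called. With shControl, TIMP1 and TIMP2 were higher in WT8 and the 5 MMPs were lower, with a median log2 difference of -3.40, where 79.5% of all genes were called, 39.3% higher and 40.2% lower. With shBMAL1, TIMP2 was higher and the other 6 were lower, with a median of -3.92, where 73.0% of all genes were called, 36.0% higher and 37.0% lower. These comparisons share libraries with those of shBMAL1. MMP7 and MMP10, at 3 counts or fewer in WT8, passed the filter on low counts only through 786O. A call of either could thus only be downward in WT8. MMP3, which did not pass the filter, had 0 counts in 786O shControl and 10, 2 and 0 in WT8 shControl. Summed with MMP3, MMP10 lost its call with shControl (edgeR adjusted p = 0.252).

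To compare levels between genes, CPM was divided by the length of the reference transcript in kilobases. On this scale TIMP1 was the most abundant member in every group, at 172 ± 11.1 CPM per kb in 786O shControl, 295 ± 17.8 in 786O shBMAL1, 343 ± 7.10 in WT8 with shControl and 238 ± 0.68 in WT8 shBMAL1. MMP14 came next in 786O, at 144 ± 4.68 CPM per kb with shControl, and TIMP2 came next in WT8, at 44.4 ± 1.73 with shControl. Summed over the 23 MMP genes of the table with a transcript length, the level was 229 ± 6.30 CPM per kb in 786O shControl, 257 ± 4.11 in 786O shBMAL1, 55.9 ± 0.57 in WT8 with shControl and 32.5 ± 1.07 in WT8 shBMAL1. The ratio of summed MMP to summed TIMP level was 1.14 ± 0.06 in 786O shControl and 0.855 ± 0.064 in 786O shBMAL1, and 0.144 ± 0.003 and 0.129 ± 0.004 in WT8. The 3 libraries with shBMAL1 were below the 3 with shControl in each line. The summed MMP level includes MMP1, the gene for which the family was picked. In WT8 its share of the sum was 17.9% with shControl but 0.44% with shBMAL1. MMP1 was at 10.0 ± 0.85 CPM per kb in WT8 with shControl and at 0.145 ± 0.068 in WT8 shBMAL1. The summed TIMP level there was 388 ± 5.71 and 252 ± 0.60 CPM per kb. The lower ratio in WT8 is thus given only for the sum with MMP1 included, and the ratio without MMP1 was not tested. With 3 libraries against 3, an exact permutation test cannot go below p = 0.1, so no test of these ratios is given.

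The make-up of the summed MMP level also differed between groups. MMP14 made up 62.8 ± 0.92% of it in 786O shControl, 58.8 ± 0.29% in 786O shBMAL1, 24.3 ± 0.37% in WT8 with shControl and 25.9 ± 1.14% in WT8 shBMAL1. MMP1 made up 17.9 ± 1.44% in WT8 shControl and at most 1.61% in any library of the other groups. MMP13 went from 0.816 ± 0.070% to 5.41 ± 0.05% in 786O with shBMAL1, and MMP2 from 3.86 ± 0.65% to 14.0 ± 0.11% in WT8. In WT8 the membrane-type enzymes MMP15 and MMP24, which are not members, made up 24.4 ± 0.88% and 15.6 ± 0.16% with shControl.

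**Figure D3:**
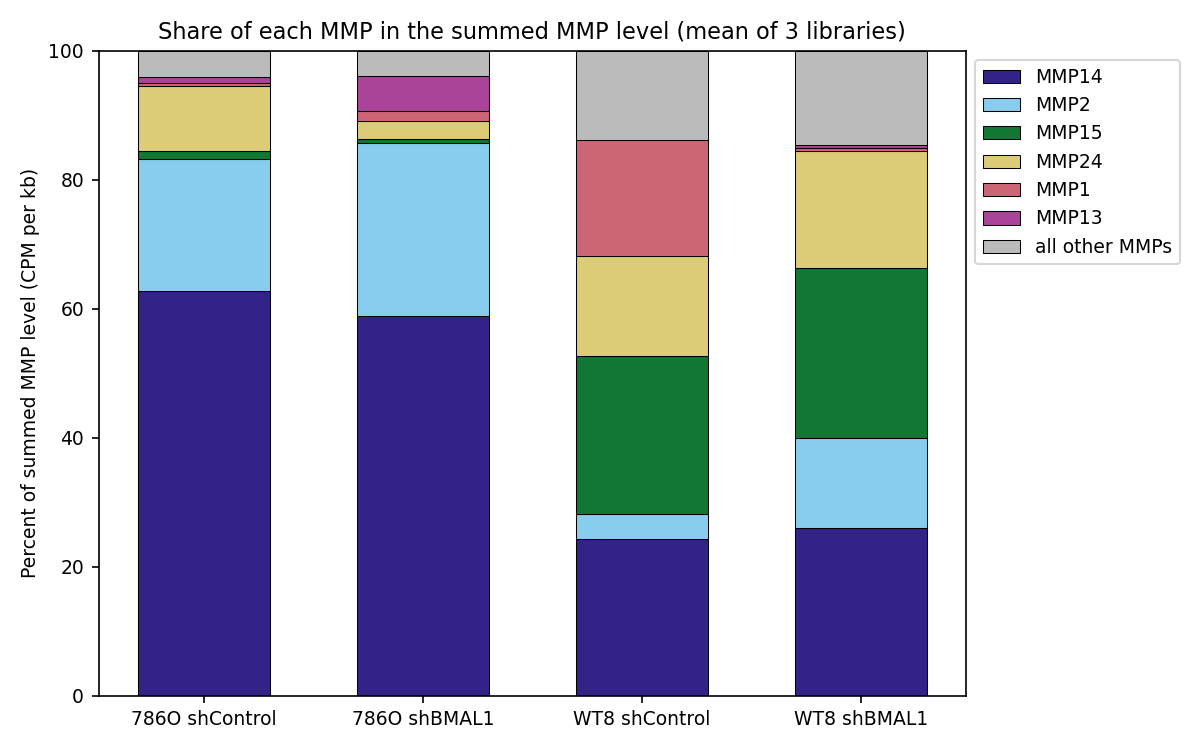
Share of each MMP in the summed level of 23 MMP genes (percent of CPM per kb of transcript), as stacked bars of the mean over 3 libraries per group. MMP14 and MMP2 fill most of the bars of 786O, and MMP1 has a broad band (17.9%) in WT8 shControl only.

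Levels of MMP14, TIMP2 and MMP2, which act in 1 complex, shifted against each other. The ratio of MMP14 to TIMP2 (CPM per kb) was 5.15 ± 0.20 in 786O shControl and 25.2 ± 2.33 in 786O shBMAL1, and 0.306 ± 0.014 and 0.583 ± 0.045 in WT8. The ratio of MMP2 to TIMP2 was 1.68 ± 0.15 and 11.5 ± 1.14 in 786O and 0.0484 ± 0.0062 and 0.315 ± 0.014 in WT8. Both ratios were higher with shBMAL1 in all 3 libraries of each line. The ratio of TIMP1 to TIMP2 went from 6.16 ± 0.66 to 49.2 ± 5.60 in 786O and from 7.74 ± 0.46 to 16.4 ± 0.15 in WT8.

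Around MMP1, 18 genes of the table start within 1000 kb on either side, and 11 of them were tested: 4 members and 7 others. In 786O the log2 changes of the 7 others with shBMAL1 ran from -0.70 (BIRC3) to 0.28 (YAP1), below those of MMP7 (1.40), MMP1 (1.52) and MMP13 (2.89). MMP10, which was not called, had 0.58, and 0.19 without 786O shBMAL1 replicate 2, which is below YAP1. In WT8 they ran from -0.55 (CEP126) to 0.70 (TMEM123), above MMP1 (-6.10). MMP13 had 0.81 there, and 0.47 without WT8 shControl replicate 3, which is below TMEM123. MMP10, whose start is 17.5 kb from that of MMP1, had at most 3 counts in each WT8 library, and so had MMP7. MMP3, which starts 45.4 kb from MMP1 on the other side, had up to 10.

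**Figure D4:**
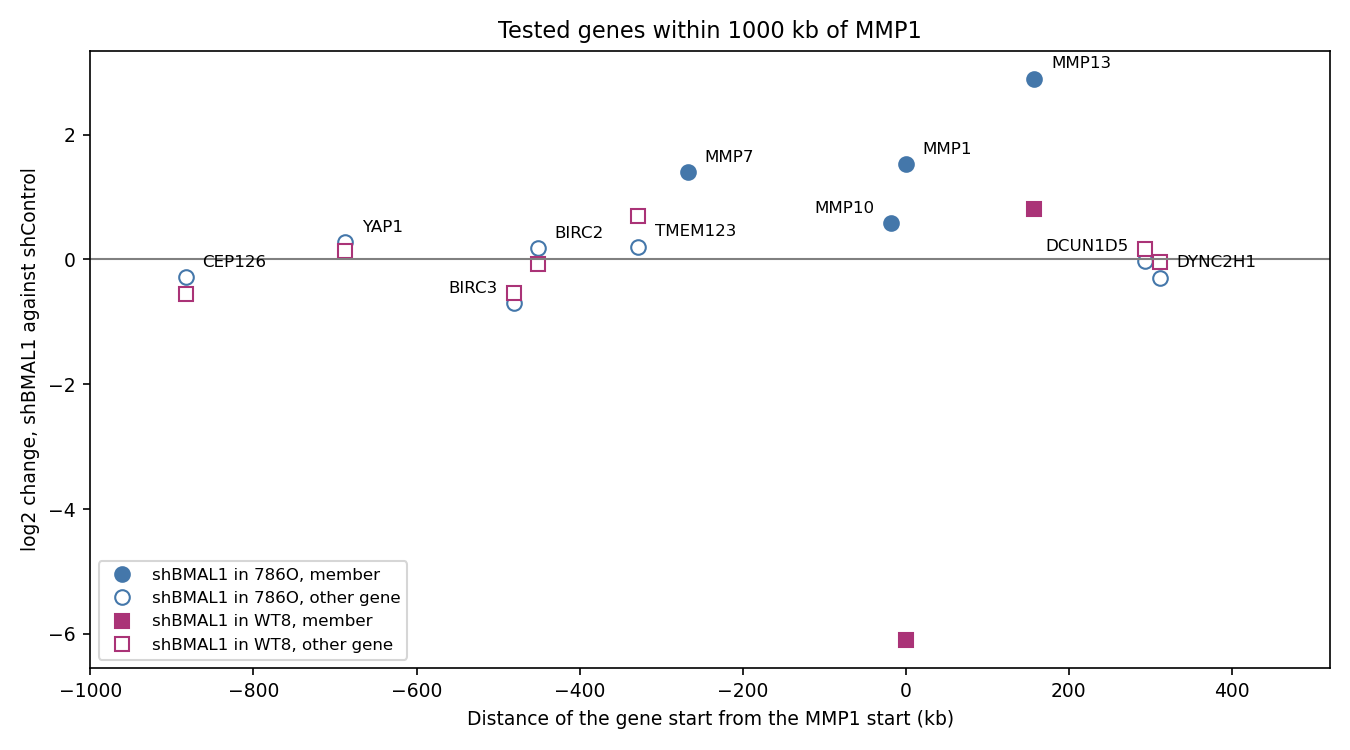
Log2 change with shBMAL1 against the distance of each gene's start from that of MMP1 in kb, for the 11 tested genes within 1000 kb (filled for members, open for other genes, circles for 786O, squares for WT8). MMP7 and MMP10 have no value in WT8. In 786O MMP7, MMP1 and MMP13 lie above the 7 other genes, and in WT8 MMP1 lies at -6.10. MMP10 in 786O (0.58) was not called and falls to 0.19 without 1 library.

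The genes most like MMP1 were found by Pearson r of log2 CPM over the 12 libraries, which share 4 group means, among 12948 tested genes with a mean of at least 50 counts. The first 5 were IGFBP1 (r = 0.982), which encodes an insulin-like growth factor binding protein, ZFYVE28 (0.978), TPBG (0.977), KCCAT211 (0.976) and PLXNA3 (0.975), a semaphorin receptor. IGFBP1 was at 6.15 ± 0.47 CPM in 786O shControl, 12.4 ± 0.69 in 786O shBMAL1, 18.7 ± 1.67 in WT8 shControl and only 0.890 ± 0.012 in WT8 shBMAL1, the same order of groups as MMP1. Among the members, r to MMP1 was 0.554 for TIMP1, 0.348 for MMP7, 0.315 for MMP14, 0.240 for TIMP2, 0.179 for MMP13 and 0.0412 for MMP2.

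Of the other MMPs and TIMP4, 10 of 17 were tested. With shBMAL1 in 786O 1 rose and 6 fell, with a median log2 change of -0.83, and in WT8 1 rose and 7 fell, with a median of -0.79. Over all genes tested, 24.5% rose and 24.4% fell in 786O, and 32.9% rose and 36.9% fell in WT8. MMP9, the other gelatinase, fell by 1.49 ± 0.21 in 786O (edgeR adjusted p = 6.83e-07) and by 3.02 ± 0.36 in WT8 (edgeR adjusted p = 2.07e-08), where MMP2 rose. The membrane-type enzyme MMP24 fell by 1.65 ± 0.06 in 786O (edgeR adjusted p = 7.08e-23) and by 0.57 ± 0.06 in WT8 (edgeR adjusted p = 1.27e-10). MMP17 fell by 1.41 ± 0.33 in 786O and by 1.03 ± 0.19 in WT8. MMP15 was 5.24-fold higher in WT8 than in 786O with shControl (edgeR adjusted p = 1.67e-25), opposite to MMP14. Between the lines with shControl 4 were higher and 4 lower in WT8, with shBMAL1 4 and 5, and for 2 and 2 the change with shBMAL1 differed upward and downward. Over all genes tested, 39.3% were higher and 40.2% lower with shControl, and 36.0% and 37.0% with shBMAL1. The change differed upward for 27.4% and downward for 28.5%.

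AP-1 and ETS factors are the transcription factors best known for driving MMP promoters, and 14 of the 15 on the list were tested. With shBMAL1, 7 rose and 2 fell in 786O (median log2 change 0.22), and 4 rose and 8 fell in WT8 (median -0.53), against 24.5% risen and 24.4% fallen over all genes in 786O and 32.9% and 36.9% in WT8. FOS, an AP-1 subunit, was at 9.34 ± 0.48 CPM in 786O shControl, 17.2 ± 1.5 in 786O shBMAL1, 31.6 ± 0.42 in WT8 with shControl and 6.54 ± 0.91 in WT8 shBMAL1. It rose by 0.88 ± 0.09 in 786O (edgeR adjusted p = 1e-09) and fell by 2.27 ± 0.10 in WT8 (edgeR adjusted p = 1.7e-21), a difference of -3.16 ± 0.13 (edgeR adjusted p = 5.35e-21). FOSB fell by 2.02 ± 0.22 in WT8 (edgeR adjusted p = 4.27e-10), and the ETS factor ETV4 rose by 1.97 ± 0.22 (edgeR adjusted p = 7.64e-10). Other genes of the list moved the same way in both lines. ATF3 rose by 0.65 ± 0.09 in 786O and by 0.81 ± 0.08 in WT8, and ETS1 fell by 0.507 ± 0.044 and 0.986 ± 0.045. ETV1, another ETS factor, was at least 64.5-fold lower in WT8 than in 786O with shControl (edgeR adjusted p = 2.72e-17). Between the lines with shControl 9 were higher and 4 lower in WT8, with shBMAL1 2 and 11, and the change with shBMAL1 differed upward for 2 and downward for 9. The shares over all genes tested were 39.3% higher and 40.2% lower with shControl and 36.0% and 37.0% with shBMAL1. For the difference in change they were 27.4% upward and 28.5% downward.

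Among cytokines and receptors known to induce MMPs, 13 of 16 were tested, with 7 risen and 4 fallen in 786O (median log2 change 0.24) and 2 risen and 9 fallen in WT8 (median -0.67). The shares over all genes were 24.5% risen and 24.4% fallen in 786O and 32.9% and 36.9% in WT8. AREG, a ligand of the EGF receptor, rose by 1.72 ± 0.12 in 786O (edgeR adjusted p = 1.15e-14) and by 1.18 ± 0.28 in WT8 (edgeR adjusted p = 0.00033). IL6 fell by 2.51 ± 0.10 in WT8 (edgeR adjusted p = 1.73e-20), and its change in 786O missed the threshold (edgeR adjusted p = 0.251). TNF fell in both lines, by 0.96 ± 0.19 and 1.27 ± 0.13. Of the genes that activate or restrain MMPs, 15 of 16 were tested, with 4 risen and 5 fallen in 786O (median 0.03) and 4 risen and 10 fallen in WT8 (median -0.38), against the same shares over all genes. PLAU, the urokinase that starts the plasmin cascade, fell by 1.28 ± 0.04 in 786O (edgeR adjusted p = 5.23e-23) and by 0.74 ± 0.04 in WT8 (edgeR adjusted p = 6.12e-17). LRP1, a receptor that clears MMPs and TIMPs, fell by 1.95 ± 0.17 in WT8 (edgeR adjusted p = 7.48e-06).

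The related ADAM and ADAMTS proteases had 14 of 16 genes tested, with 7 risen and 4 fallen in 786O (median log2 change 0.15) and 4 risen and 8 fallen in WT8 (median -0.23). Calls were made for 48.9% of all genes in 786O (24.5% risen, 24.4% fallen) and 69.8% in WT8 (32.9% risen, 36.9% fallen). ADAMTS1 rose in both lines, by 1.05 ± 0.04 in 786O (edgeR adjusted p = 5.68e-21) and by 0.82 ± 0.04 in WT8 (edgeR adjusted p = 6.67e-19). ADAMTS12 rose by 1.44 ± 0.11 in 786O (edgeR adjusted p = 2.93e-13). ADAM12, a metalloproteinase of the cell surface, was 61.4-fold lower in WT8 than in 786O with shControl (edgeR adjusted p = 3.33e-32).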

How the data were processed

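RNA was measured in 12 cultures, 3 per group, grouped by their labels, which give no batch. According to the methods of the study, the authors used SeqMan NGen for alignment to GRCh37 and ArrayStar to export counts, whereas the submitters' processing notes name hg38, STAR and DESeq2. The deposited values are estimated counts per gene, not scaled between libraries. A value of 0.028 stood in for 0 in 47% of them, and 5.67% of the others were not whole, so values were rounded and the stand-in set to 0; the tests had been planned for plain counts. Values equal to 2 (14754) outnumbered values equal to 1 (11117), so mates of a pair may have been counted separately. The 38074 lines were summed by name to 38021 genes.

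The fit was made over all genes with edgeR 4.0.16 in R 4.3.3 (filterByExpr, TMM, robust quasi-likelihood F test, 1 mean per group over the 12 libraries). This left 16838 genes of 26925 with a count, and the common biological coefficient of variation was 5.7%. P-values were adjusted over all genes tested (Benjamini-Hochberg) and called under 0.1. They measure the spread between these replicates, whose independence is given only by their labels. A replicate group at or under 3 counts in every library was set to 3 counts for a bound. Floors and bounds cover counting error only: without molecular identifiers, amplified reads do not count independent molecules. The fit was tested on simulated data. Alternatives were DESeq2 1.42.0, RLE scaling, no filter, fits of the compared groups alone, an adjusted p under 0.05, a fold over 1.5, counts divided by 2, a replicate block, each library left out, and MMP3 and MMP10 summed.

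The members and lists were chosen with earlier results of these data known. Beside the members, at most the 3 called genes of a list with the largest change, a mean of at least 50 counts and groups that do not overlap were named per comparison, and the 5 genes most like MMP1. Neighbours of MMP1 named for the ends of a range, and the levels of FOS and IGFBP1, were chosen after their values were seen.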

Additional observations from a re-analysis of the deposited data

Results flagged for a closer look

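The differences between the lines in the change with shBMAL1 (WT8 minus 786O, on the log2 scale) are repeated here for MMP1 and for 5 of the 6 tested members that passed. MMP7 also passed (edgeR adjusted p = 0.00653), but no size is given because its WT8 groups were at or under 3 counts. For MMP1 the difference was -7.62, not tested, with every shBMAL1 library above every shControl library in 786O and below them in WT8. For the other 5, the difference passed the edgeR test. It was 0.52 for MMP2 and 0.60 for TIMP2, which moved the same way in both lines. It was -2.08 for MMP13, -0.76 for MMP14 and -1.31 for TIMP1. Of 6414 genes called in both lines, 4375 changed in the same direction, 1069 rose in 786O and fell in WT8, as TIMP1 did, and 970 did the reverse.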

How the results depend on the processing

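Over the alternatives, 639 values of the tested members kept their side of the threshold and 12 kept the direction but lost the call. The 99 values of MMP1, which has no test, kept their direction and moved by less than the spread between replicates. Requiring a fold over 1.5 cut the genes called to 2409 for shBMAL1 in 786O, 6037 in WT8, 8312 between the lines with shControl, 6504 with shBMAL1 and 4932 for the interaction, and ended the calls of MMP2 in 786O (log2 0.56) and for the interaction (0.52), and of TIMP1 in WT8 (-0.53) and between the lines with shBMAL1 (-0.31). MMP13 in WT8 also lost its call when only the 2 groups were fitted (0.83, edgeR adjusted p = 0.175), at an adjusted p under 0.05, and with counts divided by 2 (0.67, adjusted p = 0.269). Its adjusted p ran from 0.00662 to 0.342 over all alternatives.

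The replicate block called 8055 genes in 786O, 11622 in WT8, 13268 and 12161 between the lines and 9246 for the interaction, and changed no call of a member. Same-numbered libraries did not deviate together (mean r -0.00856 over 18 pairs, from -0.0456 to 0.0481), so no effect shared by number was seen. These values cannot show whether same-numbered cultures were handled together, which the labels do not give. Depth limits MMP3, MMP10, TIMP3 and, in WT8, MMP7 and MMP13, where a few counts decide. If mates were counted separately, 3 counts are fewer fragments and the bounds may be too high.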
